A study of Homo sapiens with 6 samples.

Results

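The nuclear-encoded genes of the respiratory chain were compared between A549-TIPARP cells and A549-GFP cells. Members were chosen by symbol alone by a pattern for the NDUF, SDH, UQCR, CYC1, COX4 to COX8 and ATP5 genes. The pattern matched 105 of the 53826 entries of the tables. They were 37 subunits and 8 assembly factors of complex I, 4 subunits of complex II, 10 of complex III, 18 of complex IV and 17 of complex V, and 11 pseudogenes of UQCR genes. The symbols are older ones in the case of complex V, where ATP5B is now called ATP5F1B and ATP5G2 is now called ATP5MC2.

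The parent line, A549, was derived from a human adenocarcinoma of the lung. A549-TIPARP cells stably overexpress TIPARP, a mono-ADP-ribosyltransferase, from a retroviral pMXs vector that holds its coding region, and A549-GFP cells carry GFP in the same vector. Both lines grew in the same serum-containing medium, the labels name no drug, and whether a line is a single clone is not given in the sources used here. There were 3 libraries of each line, numbered by experiment, and nothing in the labels tells whether these were separate cultures, so the p-values measure the spread between these samples. Levels are in TPM, a unit that corrects for transcript length and gives every library the same total, and the files hold their log2 with every TPM below 1 set to 1. Read counts were not used here, so the depth of the libraries is unknown.

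The respiratory chain sits in the inner membrane of the mitochondrion. Complex I takes electrons from NADH and complex II from succinate, ubiquinone carries them to complex III, cytochrome c carries them on to complex IV, and complex IV passes them to oxygen. The proton gradient built by complexes I, III and IV drives complex V, the ATP synthase. Complexes I, III, IV and V mix subunits made from nuclear genes with subunits made from mitochondrial DNA, whereas complex II is wholly nuclear-encoded. Assembly factors build the complexes and are not part of the finished enzymes. Nuclear respiratory factor 1 (NRF1), ETS family factors such as GABP, and YY1 are known to bind promoters of many of these genes.

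The promoters of the members were searched for the letters of these motifs. RefSeq windows on GRCh38.p14, reaching from 250 bases before to 50 bases past the annotated start, were matched to 75 of the 105 entries, and 71 of these entries were analysed for expression. Searched on both strands, the NRF1 letters GCGCATGC stood in a window of 16 of the 71 genes (22.5%), in 6.56% of all analysed genes with a window and in 3.68% of all genes with a window. In 5 of the 71 (7.04%, against 2.74% of the analysed genes) the letters lay on both strands at the same place, which makes a palindrome of 10 bases. The 5 stretches are printed to show what the motif looks like in place, in 5′ to 3′ direction on the strand of the gene, with the palindrome in capitals. Those of ATP5C1 (chr10:7788130-7788189, plus strand), NDUFA8 (chr9:122159755-122159808, minus strand), NDUFAF5 (chr20:13784999-13785052, plus strand), NDUFB4 (chr3:120596152-120596211, plus strand) and SDHD (chr11:112086738-112086797, plus strand) read as follows.
ATP5C1: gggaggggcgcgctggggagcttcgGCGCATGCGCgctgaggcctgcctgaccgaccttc
NDUFA8: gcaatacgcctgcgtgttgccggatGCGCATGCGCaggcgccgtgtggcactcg
NDUFAF5: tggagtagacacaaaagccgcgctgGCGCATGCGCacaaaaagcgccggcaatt
NDUFB4: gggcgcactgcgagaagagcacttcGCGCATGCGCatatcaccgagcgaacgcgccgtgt
SDHD: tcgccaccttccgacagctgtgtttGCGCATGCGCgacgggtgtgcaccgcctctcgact

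In ATP5C1 the palindrome began 22 bases before the start, in NDUFB4 159 bases and in SDHD 110 bases before it, and in NDUFA8 and NDUFAF5 it lay across the start itself. The ETS motif CCGGAAGT was found in 11 of the 71 genes (15.5%, against 10.1% of the analysed genes) and the YY1 motif AAGATGGC in 13 genes (18.3%, against 6.45%), also on both strands. No overlap between the motifs was removed, and these are matches of letters and not measured binding. The 16 genes with the NRF1 letters included the members with the largest difference in either direction, NDUFAF4 (chr6:96897867-96897945, minus strand) and ATP5G2 (chr12:53676059-53676183, minus strand, the first of its 3 windows). Their stretches are printed with the letters of either strand in capitals.
NDUFAF4: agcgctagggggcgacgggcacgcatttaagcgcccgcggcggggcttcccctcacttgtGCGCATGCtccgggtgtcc
ATP5G2: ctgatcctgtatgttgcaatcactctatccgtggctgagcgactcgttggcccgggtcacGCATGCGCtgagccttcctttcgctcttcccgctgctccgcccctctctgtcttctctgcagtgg

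The letters lay just past the start in NDUFAF4 and 40 bases before it in this window of ATP5G2. In ATP5G2 they also stood in window 2 of 3 (chr12:53676321-53676448), 58 bases before its start. Whether the letters have a part in the differences was not tested.

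Before the members, the lines and libraries were checked. TIPARP read 6.79, 11.4 and 3.68 TPM in the A549-GFP libraries and 131, 90.5 and 123 TPM in the A549-TIPARP libraries, as the labels say. Of the 5 epithelial markers, KRT8, KRT18, EPCAM and CDH1 were expressed in all 6 libraries. KRT19 was low, at 4.57, 2.54 and 5.36 TPM in the A549-GFP libraries and 19.2, 19 and 10.9 TPM in the A549-TIPARP libraries, and the lines did not overlap (log2 fold change 2.00, or 1.68 without A549-GFP replicate 2, limma adjusted p = 0.283). Of the others, 7 of 10 markers of blood, vessel, fibroblast and differentiated alveolar cells, PTPRC and SFTPC among them, were at the floor in all of them. CD68 read 25 to 68.1 TPM, highest in A549-GFP replicate 2, HBB stayed below 1.1 TPM, and COL1A1 was at 1 to 1.44 TPM in the A549-GFP line and higher, at 1.64 to 2.56 TPM, in every A549-TIPARP library. The part of these markers in the results was not tested. A549-GFP replicate 2 stood apart, with a median of 0.28 above the mean of the 6 libraries over all 13181 analysed genes on the log2 scale, and with KRT8 at 3855 TPM and KRT18 at 4176 TPM, where the other 5 libraries had at least 6959 and 9272 TPM. Results that rest on this library are therefore given with and without it, and its part in them was not otherwise tested.

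Of the 105 entries, 88 passed the filter of more than 2 TPM in at least 1 library and were analysed, 79 subunits, the 8 assembly factors and the pseudogene UQCRBP1. The other 17 were silent or nearly so. They were 10 UQCR pseudogenes, ATP5L2, and COX4I2, COX6A2, COX7A1, COX7B2 and COX8C, all at the floor in 6 of 6 libraries, and COX6B2, which stayed under the filter. The silent COX genes are tissue-restricted forms of complex IV subunits, known from lung, muscle or testis, and each has a form that these cells expressed. COX4I1 read 633 to 778 TPM, COX6A1 890.3 to 1633 TPM, COX6B1 861 to 1077 TPM, COX7A2 289.9 to 405 TPM, COX7B 805 to 957 TPM and COX8A 722 to 1039 TPM over the 6 libraries. The filter takes the higher line into account, so counts over the 88 genes describe the genes that passed it and not all members.

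The analysed members were highly and evenly expressed. Their median level was 203 TPM, in comparison to 14.3 TPM over all analysed genes, and their median standard deviation within a line was 0.16 on the log2 scale, in comparison to 0.33. The highest was ATP5B, the catalytic beta subunit of ATP synthase, with a geometric mean of 1225 TPM, followed by ATP5E, the epsilon subunit, with 1218 TPM, and COX6A1, a small subunit of complex IV, with 1035 TPM. ATP5B and ATP5E differed by less than their spread between libraries. The lowest were UQCRBP1 with 1.44 TPM, ATP5S, a gene related to coupling factor B, with 6.19 TPM, and NDUFAF7, an assembly factor of complex I, with 7.69 TPM. The summed TPM of the 88 genes took 2.45%, 2.55% and 2.77% of a library in A549-GFP replicates 1, 2 and 3 and 2.53%, 2.52% and 2.37% in A549-TIPARP replicates 1, 2 and 3. These ranges overlap, with a ratio of the means of 0.955.

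No member passed limma's test between the lines at an adjusted p-value of 0.05, where 0.0152% of all analysed genes did (2 genes), and the smallest adjusted p-value of a member was 0.994. Without adjustment, NDUFAF4 alone was under 0.05, 1.14% of the members in comparison to 3.85% of all analysed genes. No member differed by more than 2-fold (1.96% of all analysed genes), and NDUFAF4 alone differed by more than 1.5-fold (8.72% of all analysed genes). NDUFAF1 passed 1.5-fold as well without A549-GFP replicate 1 (log2 fold change -0.80), A549-GFP replicate 3 (-0.75) or A549-TIPARP replicate 2 (-0.62). Without A549-GFP replicate 2, NDUFAF4 was within 1.5-fold, at -0.48. A p-value above the threshold does not show equal levels, but the 95% intervals of limma bound the differences. For 86 of the 88 members (97.7%) the interval lay within 2-fold in either direction, against 79.3% of all analysed genes. For 65 members (73.9%) it lay within 1.5-fold, against 21.1% of all analysed genes. The 2 exceptions to the 2-fold bound were the assembly factors NDUFAF4 and NDUFAF1.

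**Figure D1:**
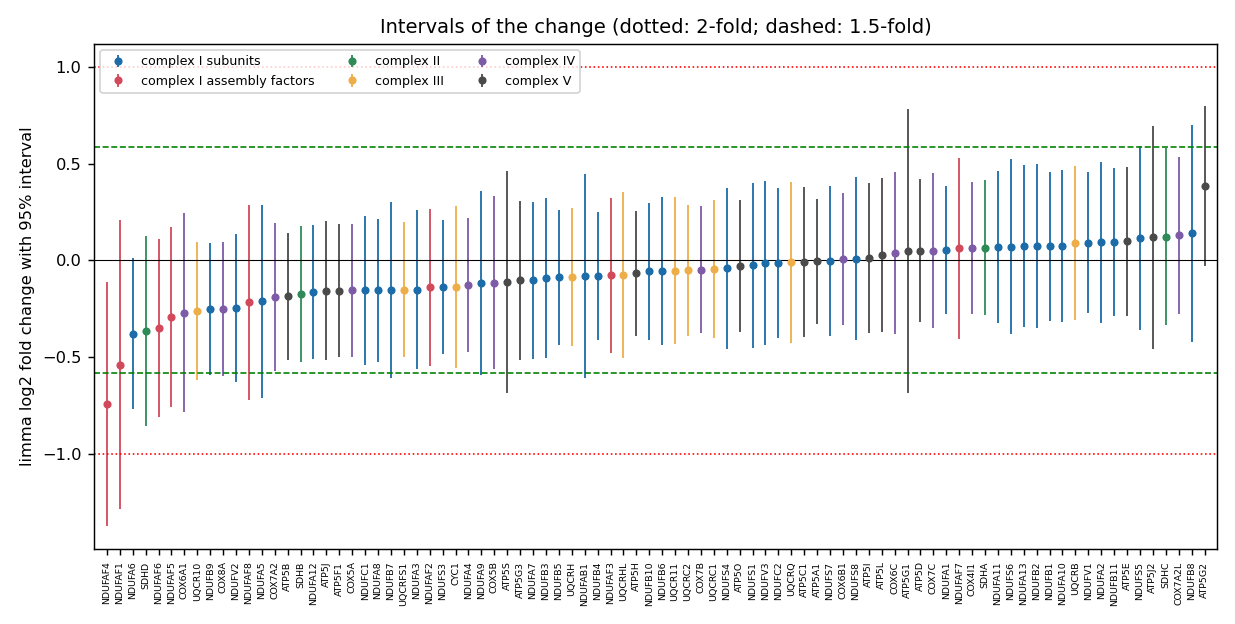
The log2 fold change of 86 analysed members between A549-TIPARP and A549-GFP cells, as points on log2(TPM + 1) with the 95% interval of limma as bars, sorted by size and coloured by complex (UQCRBP1 and 1 other member left out). The dotted red lines mark 2-fold and the dashed green lines 1.5-fold, and the bars of NDUFAF4 and NDUFAF1 cross the lower 2-fold line.

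Over the 88 members the median log2 fold change (mean deposited log2 TPM of A549-TIPARP minus that of A549-GFP) was -0.06, and the median over all analysed genes was -0.07. The 2 medians were -0.08 and 0.05 without A549-GFP replicate 2, and with replicate 3 of the same line left out they were -0.01 and -0.17. The mean was lower in A549-TIPARP cells in 59 members (67.0%), where 59.9% of all analysed genes were lower. These shares were 71.6% and 42.6% without A549-GFP replicate 2, and 51.1% and 68% with replicate 3 of that line left out. When the libraries were rescaled to a common median ratio, 43 of 88 were lower (48.9%, against 50.1% of all analysed genes) and the median was 0.01. With a correction for GC content it was 42 of 88 (47.7%, against 49.6%) and also 0.01. The median over all analysed genes was -0.00095 after rescaling and 0.0021 with the GC correction. Both scalings centre the libraries over all genes, and the sign of the members' median changed with them. In 11 members (12.5%) the 3 A549-TIPARP libraries all lay below the 3 A549-GFP libraries, where 3.54% of all analysed genes did so, and no member had the opposite pattern (5.36% of all analysed genes). They were the assembly factors NDUFAF4, NDUFAF1, NDUFAF6 and NDUFAF5, the complex I subunits NDUFA6, NDUFB9 and NDUFV2, UQCR10 and UQCRFS1 of complex III, COX8A of complex IV and ATP5F1 of complex V. The count went down to 6 after rescaling (6.82%, against 5.03% of all analysed genes), with 1 member then in the opposite pattern (1.14%, against 6.96%). It was 4 after the GC correction (4.55%, against 5.76%), with none in the opposite pattern (7.13% of all analysed genes). With A549-GFP replicate 1 left out, 23 members lay below (26.1%, against 5.77%) and none above (8.12% of all analysed genes). Leaving out replicate 2 of that line gave 23 below (26.1%, against 6.42%) and 1 above (1.14%, against 21.2%), and leaving out replicate 3 gave 15 below (17%, against 23.5%) and 8 above (9.09%, against 7.21%).

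Leaving out 1 library moved the log2 fold change by over 1.5 times in 79 of the 88 members (89.8%, against 92.4% of all analysed genes), and it turned the sign in 47 (53.4%, against 53.5%).

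**Figure D2:**
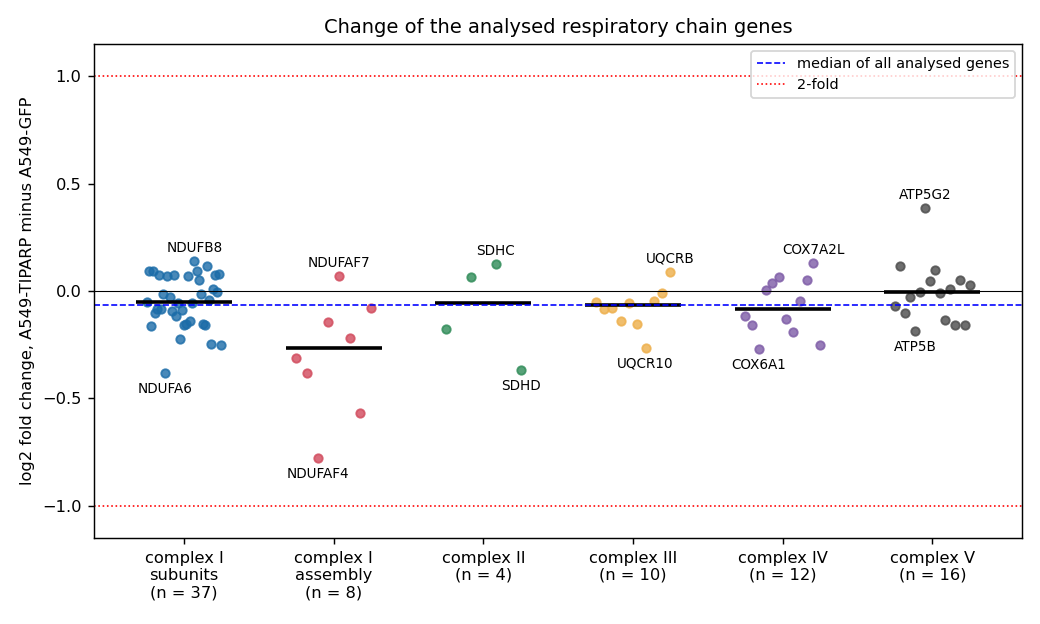
The log2 fold change of deposited TPM between A549-TIPARP and A549-GFP cells for each analysed member except UQCRBP1, in 6 groups, with a black bar at the median of each group. The dashed blue line is the median of all 13181 analysed genes and the dotted red lines are 2-fold, and the assembly factors of complex I have the lowest median, at -0.26.

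All 37 subunits of complex I were analysed, and their median log2 fold change was -0.05, with 24 lower and 13 higher in A549-TIPARP cells. Rescaling and the GC correction both turned this median to the other sign, at 0.02 and 0.03, as did leaving out A549-TIPARP replicate 3, at 0.01, or A549-GFP replicate 3, at 0.0016. The 7 core subunits, which hold the flavin and the iron-sulfur clusters and are shared with bacterial complex I, ran from -0.25 in NDUFV2 to 0.09 in NDUFV1. NDUFV1, which binds NADH and the flavin, read 209, 218 and 259 TPM in the A549-GFP libraries and 237, 264 and 229 TPM in the A549-TIPARP libraries. NDUFS1, which carries iron-sulfur clusters, read 68.8, 54 and 50.6 TPM and then 57.3, 61.2 and 50.6 TPM. The lines overlapped in both genes.

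NDUFB4, an accessory subunit of the membrane arm, was among the most even genes, with a pooled standard deviation within a line of 0.05 on the log2 scale. It read 165, 164 and 159 TPM in the A549-GFP libraries and 162, 149 and 151 TPM in the A549-TIPARP libraries.

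The 30 other subunits of complex I, accessory proteins around the core, ran from -0.38 in NDUFA6 to 0.14 in NDUFB8. NDUFA6, a subunit of the LYR family (Entrez Gene ID 4700, on chromosome 22 of hg38 from 42085526 to 42090884, minus strand, 3 exons), read 156, 183 and 154 TPM in the A549-GFP libraries and 139.7, 132 and 108 TPM in the A549-TIPARP libraries. Every A549-TIPARP library was below every A549-GFP library. The mean log2 TPM was 7.36 ± 0.14 (SD, n = 3) and 6.98 ± 0.19 (SD, n = 3), and the interval of the difference, -0.77 to 0.01, just reached 0 (limma adjusted p = 0.994). Its log2 fold change was -0.30 with A549-GFP replicate 2 left out.

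NDUFB9, a membrane arm subunit, showed the same order with a smaller difference, at 439, 546 and 478 TPM and then 421, 408 and 394 TPM (log2 fold change -0.25, or -0.17 without A549-GFP replicate 2). NDUFV2, a core subunit with an iron-sulfur cluster, read 259.5, 352 and 272 TPM in the A549-GFP libraries and 234, 256 and 248 TPM in the A549-TIPARP libraries. Its log2 fold change of -0.25 was -0.11 without A549-GFP replicate 2. NDUFB8, at the other end, read 277, 175 and 315 TPM and then 306, 299.7 and 222 TPM, and its log2 fold change of 0.14 turned to -0.11 without that library and was 0.31 without A549-GFP replicate 3.

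Some members overlap other annotated entries, and how shared reads were divided is not given in the sources used here. NDUFC2, a membrane arm subunit at 49.8 to 61.9 TPM, shares exons with the read-through entry NDUFC2-KCTD14 at 31.5 to 48.4 TPM, and ATP5J2 with ATP5J2-PTCD1 at 3.76 to 5.99 TPM. The values of these 4 entries are uncertain to that extent. The divergent noncoding gene NDUFA6-AS1 beside NDUFA6 read 1.88 to 4.46 TPM.

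The 8 assembly factors of complex I had the lowest median of the 6 groups, -0.26 on the log2 scale, and 7 of the 8 were lower in A549-TIPARP cells. The median was -0.20 after rescaling, -0.22 with the GC correction and -0.21 without A549-GFP replicate 2, with 7 of 8 lower each time. The difference was smaller without A549-TIPARP replicate 3, which was the lowest of the 6 libraries in 5 of the 8 genes, at -0.13 with 5 of 8 lower. None passed the adjusted test. The group was expressed far below the subunits, with a median level of 19.6 TPM in comparison to 168 TPM for the subunits of complex I.

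NDUFAF4, a chaperone of the early membrane intermediates of complex I, had the largest difference of all members (Entrez Gene ID 29078, on chromosome 6 of hg38 from 96889315 to 96897891, minus strand, 3 exons). It read 25.6, 44.2 and 22.1 TPM in the A549-GFP libraries and 17.5, 19.3 and 14.7 TPM in the A549-TIPARP libraries. Replicate 2 was the high library of the A549-GFP line, and the lines did not overlap even without it. Mean log2 TPM was 4.87 ± 0.53 (SD, n = 3) in A549-GFP cells and 4.09 ± 0.20 (SD, n = 3) in A549-TIPARP cells, 1.71-fold lower. limma gave a difference of -0.74 in log2(TPM + 1), with a standard error of 0.28 and an interval of -1.37 to -0.12 (unadjusted p = 0.0256, limma adjusted p = 0.994). The adjusted p-value lay between 0.446 and 1 in the alternatives. Without A549-GFP replicate 2 the difference of the deposited values was -0.48, which is within 1.5-fold.

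NDUFAF1, a factor of the same intermediates, read 13.8, 33.7 and 14.7 TPM in the A549-GFP libraries and 12.2, 13.7 and 12.5 TPM in the A549-TIPARP libraries. Most of its log2 fold change of -0.57 came with A549-GFP replicate 2, without which it was -0.16, and it was -0.80 without A549-GFP replicate 1. NDUFAF6 and NDUFAF5 were steadier. NDUFAF6, a protein of the phytoene synthase family, read 13, 13.3 and 10.6 TPM and then 9.98, 8.94 and 9.29 TPM, a log2 fold change of -0.38 that was -0.32 without that library. NDUFAF5, an arginine hydroxylase acting on a core subunit, read 18.4, 21.1 and 16.7 TPM and then 16.4, 16.3 and 12.9 TPM. Its log2 fold change of -0.31 was -0.20 without A549-TIPARP replicate 3.

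The other 4 assembly factors overlapped between the lines. NDUFAF8 read 252, 254 and 244 TPM in the A549-GFP libraries and 254, 257 and 151 TPM in the A549-TIPARP libraries, so that its log2 fold change of -0.22 came from 1 library, A549-TIPARP replicate 3. NDUFAF2 was at -0.14, and between -0.23 without A549-GFP replicate 2 and -0.06 without A549-TIPARP replicate 3. NDUFAF3 was at -0.08 and turned to 0.03 without A549-TIPARP replicate 3. NDUFAF7 was the exception in direction, at 0.07, with 6.54 to 8.48 TPM in the A549-GFP libraries and 7.53 to 8.33 TPM in the A549-TIPARP libraries. It turned to -0.03 without A549-GFP replicate 3, when all 8 factors were lower.

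**Figure D3:**
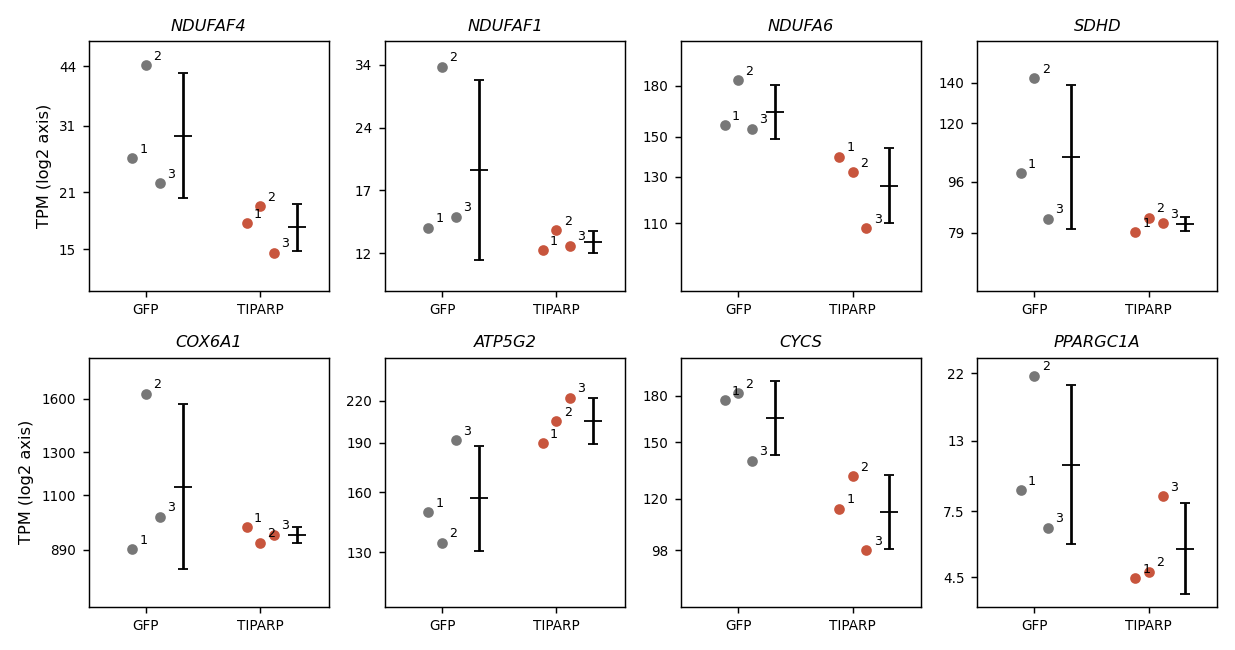
TPM on a log2 axis of 6 members (NDUFAF4, NDUFAF1, NDUFA6, SDHD, COX6A1 and ATP5G2) and of CYCS and PPARGC1A in each library, grey for A549-GFP and red for A549-TIPARP, numbered by replicate, with the mean of the log2 values and its SD (n = 3) as a black bar at the side. The A549-TIPARP points lie below all A549-GFP points in NDUFAF4, NDUFAF1, NDUFA6 and CYCS, and A549-GFP replicate 2 is far above the others in NDUFAF1, NDUFAF4, SDHD, COX6A1 and PPARGC1A.

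Complex II, succinate dehydrogenase, has 4 subunits, and all overlapped between the lines. Their median log2 fold change of -0.05 ran from -0.11 without A549-TIPARP replicate 2 to -0.02 without A549-GFP replicate 1, and it turned to 0.01 both after rescaling and with the GC correction. SDHA, which holds the flavin, read 98.8, 94.6 and 95.5 TPM in the A549-GFP libraries and 99.4, 109 and 94.5 TPM in the A549-TIPARP libraries, a log2 fold change of 0.07. SDHB, the iron-sulfur subunit, was at -0.18, with 212, 192 and 184 TPM and then 163, 189 and 168 TPM. The membrane anchors SDHC and SDHD went apart in A549-GFP replicate 2.

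In that library SDHD was highest, at 142 TPM beside 99.1 and 83.3 TPM in the other A549-GFP libraries and 79.3, 83.8 and 82 TPM in the A549-TIPARP libraries. SDHC was lowest in the same library, at 51.6 TPM beside 80.2 and 71.6 TPM, with 72.8, 76.2 and 69.2 TPM in the A549-TIPARP libraries. The log2 fold changes of -0.37 for SDHD and 0.12 for SDHC were -0.15 and -0.06 without it. They were -0.54 for SDHD without A549-GFP replicate 3 and 0.26 for SDHC without A549-GFP replicate 1.

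Of the 10 complex III genes, 9 were lower in the A549-TIPARP line, with a median of -0.07, but 5 were lower after rescaling, 6 with the GC correction and 5 without A549-GFP replicate 3. The median was -0.11 with A549-GFP replicate 1 or 2 left out and -0.02 without replicate 3. UQCR10, a small subunit beside cytochrome c1, had the largest difference, at 217, 265 and 240.4 TPM in the A549-GFP libraries and 216, 189 and 195 TPM in the A549-TIPARP libraries. The lowest A549-GFP and the highest A549-TIPARP library were less than 1 TPM apart, and the log2 fold change was -0.27 with an interval of -0.62 to 0.09. UQCRFS1, the Rieske iron-sulfur protein, read 489.9, 605 and 489.6 TPM and then 481, 484 and 453 TPM, a difference of -0.15 that was -0.05 without A549-GFP replicate 2.

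CYC1, the cytochrome c1 subunit, read 526, 374 and 537 TPM in the A549-GFP libraries and 471, 421 and 399 TPM in the A549-TIPARP libraries. Here A549-GFP replicate 2 was the lowest of the 6 libraries, and the log2 fold change went from -0.14 to -0.31 without it, and to -0.06 and -0.05 with A549-GFP replicate 1 and replicate 3 left out. UQCRB, which lies near the ubiquinone site, was the 1 gene with a higher mean, at 68.9 to 83.5 TPM and 74.2 to 91.8 TPM. Its log2 fold change of 0.09 was 0.03 without A549-GFP replicate 2 and -0.01 without A549-TIPARP replicate 3. UQCRH, the acidic hinge protein that docks cytochrome c, has a single-exon near copy, UQCRHL, which took 6.33% to 6.98% of the sum of both in all 6 libraries. The treatment of reads that match both is likewise not given, so the split between them is uncertain.

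Complex IV, cytochrome c oxidase, held 12 analysed genes with a median of -0.08, with 7 lower and 5 higher. The median was -0.02 after rescaling and turned to 0.03 with the GC correction. It was -0.15, with 9 of 12 lower, when A549-GFP replicate 1 was left out, -0.04 without replicate 2 and -0.05 without replicate 3 of the same line. COX8A, a small membrane subunit, had lines that did not overlap, with 892, 984 and 1039 TPM in the A549-GFP libraries and 881, 848 and 722 TPM in the A549-TIPARP libraries (log2 fold change -0.25, interval -0.60 to 0.10). COX6A1 had a similar mean difference, -0.27, that rested on 1 library.

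COX6A1 read 890.3, 1633 and 1011 TPM in the A549-GFP libraries, with replicate 2 high, and 971, 914 and 943 TPM in the A549-TIPARP libraries. Without that library its log2 fold change was -0.01, and with A549-GFP replicate 1 left out it was -0.45. COX4I1, the largest nuclear subunit, and COX6B1, which bridges the dimer, were at 0.06 and 0.01, and COX7B was at -0.05. COX5B, which binds zinc, read 614, 1001 and 748 TPM and then 673, 713 and 753 TPM, and its log2 fold change of -0.12 was 0.07 without A549-GFP replicate 2 and -0.28 with replicate 1 of that line left out.

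COX7A2L, a COX7A-related protein that joins complexes III and IV in supercomplexes, had the highest log2 fold change of the group, 0.13. It read 94.6, 117 and 88.6 TPM in the A549-GFP libraries and 101, 105 and 122 TPM in the A549-TIPARP libraries. The log2 fold change was 0.25 without A549-GFP replicate 2, and it was 0.05 when replicate 3 of either line was left out. COX7A2, the COX7A form of most tissues, read 289.9, 405 and 344 TPM and then 291, 307 and 303 TPM. As a share of the sum of both, COX7A2L took 24.6%, 22.4% and 20.5% in A549-GFP cells and 25.7%, 25.4% and 28.7% in A549-TIPARP cells. The ranges of the shares did not overlap, although those of both genes did. This ratio was looked at as 1 of 3 families and has no test across genes.

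Complex V had 16 analysed genes and the median nearest to 0, -0.01, with 9 lower and 7 higher, and both scalings put it above 0 (0.06 and 0.05). It was -0.10, with 13 of 16 lower, with A549-GFP replicate 2 left out, and 0.03 with replicate 3 of that line left out. In the catalytic F1 head, ATP5B, the beta subunit, read 1406, 1199 and 1327 TPM in the A549-GFP libraries and 1141, 1219 and 1089 TPM in the A549-TIPARP libraries, a log2 fold change of -0.19 with an interval of -0.52 to 0.14. Its partner ATP5A1, the alpha subunit, was at -0.01, with 388 to 441 TPM and 402 to 432 TPM. The lines overlapped in both. ATP5F1, subunit b of the stalk, was lower in all 3 A549-TIPARP libraries by a small step, at 164, 158 and 153.8 TPM and then 142, 153.4 and 132 TPM.

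Subunit c, of which a ring turns in the membrane, is made from 3 genes, ATP5G1, ATP5G2 and ATP5G3, with the same mature protein and different leader sequences. ATP5G2 had the highest log2 fold change of all members, 0.39 (Entrez Gene ID 517, on chromosome 12 of hg38 from 53632726 to 53677408, minus strand, 5 exons). It read 149, 134 and 192 TPM in the A549-GFP libraries and 189.6, 205 and 222 TPM in the A549-TIPARP libraries, so that the lines overlapped by a narrow margin between A549-GFP replicate 3 and A549-TIPARP replicate 1. Mean log2 TPM was 7.29 ± 0.26 (SD, n = 3) and 7.68 ± 0.11 (SD, n = 3). The limma interval was -0.03 to 0.80 (adjusted p = 0.994), and the log2 fold change was 0.28 without A549-GFP replicate 2 and at least that with each other library left out.

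ATP5G1, the most abundant of the 3, read 487, 229.8 and 570.5 TPM in the A549-GFP libraries and 443, 464 and 343 TPM in the A549-TIPARP libraries. A549-GFP replicate 2 was the lowest of the 6 libraries, and without it the log2 fold change went from 0.05 to -0.35. It was 0.19 and 0.30 with A549-GFP replicate 1 and replicate 3 left out. ATP5G3 read 185, 135 and 189.9 TPM and then 165, 155 and 150.1 TPM. As a share of the 3 genes, ATP5G2 took 18.2%, 26.9% and 20.1% in A549-GFP cells and 23.8%, 24.9% and 31% in A549-TIPARP cells. The shares overlapped through A549-GFP replicate 2, in which all 3 genes had their lowest level.

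**Figure D4:**
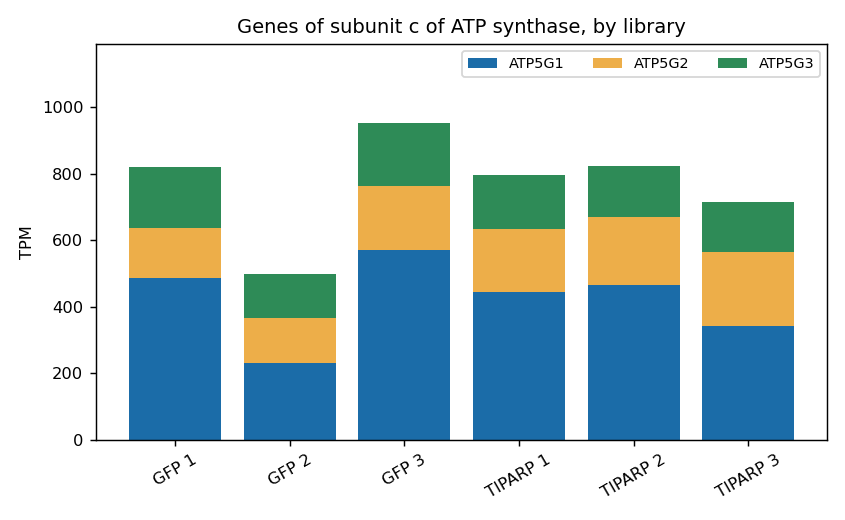
Stacked TPM of ATP5G1, ATP5G2 and ATP5G3, the genes of subunit c, in each of the 6 libraries. The stack of A549-GFP replicate 2 is the lowest, at 499 TPM, and the other 5 run from 715 to 952 TPM.

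A549-GFP replicate 2 did not shift the members as a whole in the way it shifted other genes. Against the mean of A549-GFP replicates 1 and 3, its median difference on the log2 scale was -0.03 over the 88 members and 0.38 over all analysed genes. It was more than 0.5 above them in 6 members, NDUFAF1, NDUFAF4, COX6A1, SDHD, COX5B and NDUFA5, and more than 0.5 below them in 8, ATP5G1, ATP5J2, NDUFB8, NDUFAB1, NDUFS5, SDHC, NDUFA9 and CYC1. Over all analysed genes these shares were 42.8% and 11.2%. It was the highest of the 6 libraries in 27 members (30.7%, against 52% of all analysed genes) and the lowest in 25 (28.4%, against 13.7%). A549-GFP replicate 3 was the highest in 38 members, 43.2% in comparison to 4.19% of all analysed genes, and A549-TIPARP replicate 3 was the lowest in 22 (25%, against 23.4%).

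**Figure D5:**
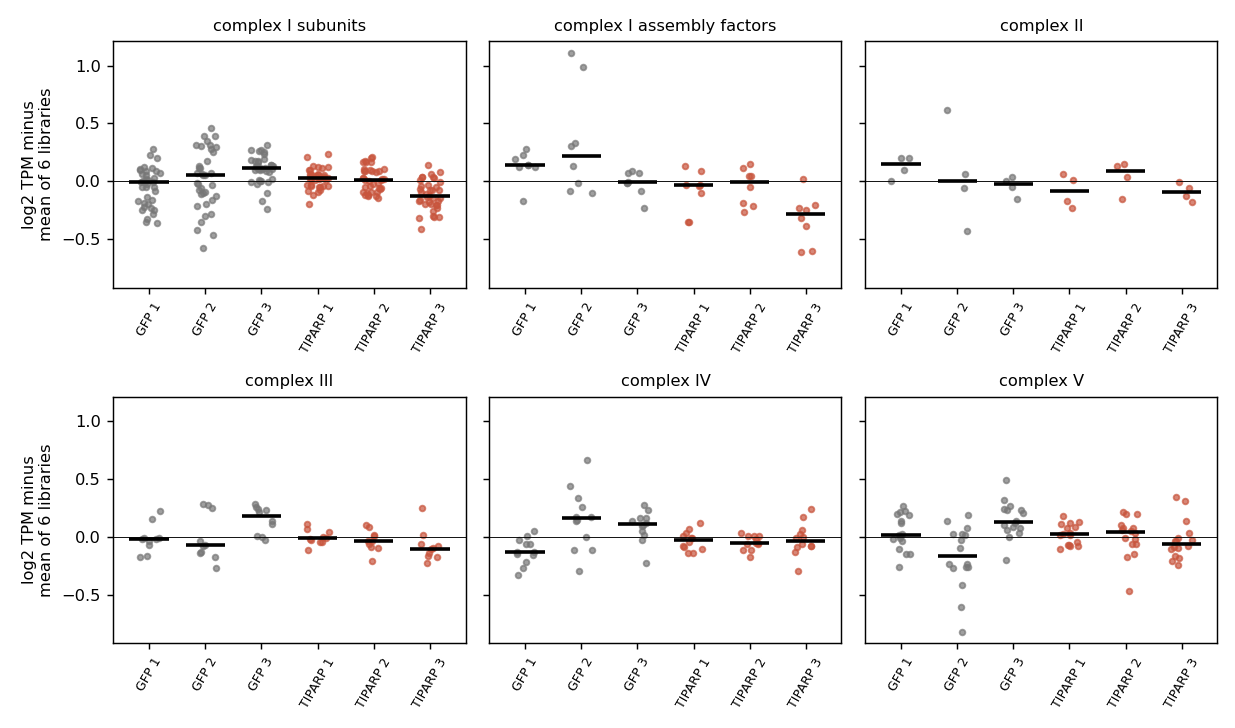
Log2 TPM of each analysed member except UQCRBP1 minus its mean over the 6 libraries, by library and complex, with grey points for A549-GFP, red points for A549-TIPARP and a black bar at each median. Points of A549-GFP replicate 2 spread widely to both sides, the complex V median is lowest in that library, and the assembly factor median is lowest in A549-TIPARP replicate 3.

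Genes that work with the respiratory chain but were not matched by the pattern were taken from lists of the pathway. The mitochondrially encoded subunits, 13 entries, were listed at 0 in all 6 libraries, so nuclear and mitochondrial subunits could not be compared. Cytochrome c itself, CYCS, the mobile carrier between complexes III and IV (chromosome 7 of hg38, 25118656 to 25125260, minus strand), read 177, 182 and 139 TPM in the A549-GFP libraries and 115, 131 and 97.9 TPM in the A549-TIPARP libraries. Each A549-TIPARP library was below each A549-GFP library, and the log2 fold change was -0.53 with all libraries and -0.46 without A549-GFP replicate 2. On log2(TPM + 1) the interval was -0.95 to -0.11 (unadjusted p = 0.0202, limma adjusted p = 0.994). NDUFA4L2, a paralog of the complex IV subunit NDUFA4, was near the filter, at 2.72, 6.43 and 2.24 TPM and then 1.6, 2.06 and 2.04 TPM.

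A further 40 genes, assembly factors of all 5 complexes and the ATP synthase inhibitor ATPIF1, were analysed, and none passed the adjusted test. Their median log2 fold change was -0.14, with 34 lower, where 59.9% of all analysed genes were lower. It was -0.07 with 28 lower after rescaling, -0.06 with 26 lower with the GC correction, and -0.06 with 25 lower without A549-TIPARP replicate 3. SCO2, a copper chaperone of complex IV, had the largest difference, -0.60, at 7.3, 9.67 and 9.73 TPM and then 8.58, 5.81 and 3.97 TPM, with overlap. It went from -0.88 without A549-TIPARP replicate 1 to -0.32 without A549-TIPARP replicate 3. In 4 of the 40 the A549-TIPARP libraries lay below all A549-GFP libraries, where 3.54% of all analysed genes lay. In none did they lie above, where 5.36% of all analysed genes lay. They were TMEM70, which helps build complex V, COA6, LYRM7 and COA4.

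Of the 14 listed regulators of mitochondrial biogenesis, 13 were analysed, with none past the adjusted test and 12 lower in A549-TIPARP cells, where 59.9% of all analysed genes were lower. The median was -0.23, and it was -0.16 after rescaling, -0.10 with the GC correction and -0.22 without A549-GFP replicate 2. It was -0.14 with 10 lower when A549-GFP replicate 1 was left out, -0.37 without A549-GFP replicate 3, and -0.18 with 9 lower without A549-TIPARP replicate 3. PPARGC1A, the coactivator PGC-1alpha, read 8.84, 21.6 and 6.6 TPM and then 4.46, 4.69 and 8.45 TPM. The lines overlapped, and its log2 fold change of -0.94 was -0.44 without A549-GFP replicate 2. NRF1 read 12.8, 11.3 and 12.2 TPM and then 11.6, 13.3 and 9.04 TPM, and TFAM, which packs and transcribes mitochondrial DNA, was at -0.26 with overlap, or -0.06 without A549-GFP replicate 1 and -0.11 without A549-TIPARP replicate 3. TFB2M, a mitochondrial transcription factor, was the only one of the 13 regulators whose lines did not overlap (3.54% of all analysed genes were lower without overlap and 5.36% higher), at 42.5, 39.2 and 34.9 TPM and then 30.4, 31.4 and 28.9 TPM.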

How the data were processed

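RNA was isolated from A549-GFP and A549-TIPARP cells, made into stranded mRNA libraries and sequenced paired-end on a NovaSeq instrument. Strand NGS was run by the authors at default settings against the transcriptome of hg38, and the authors deposited 1 table of log2 TPM per library, with TPM below 1 set to 1. The software version, the annotation release and the handling of multi-mapping reads are not given in the sources used here.

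The 13181 entries with TPM above 2 in at least 1 library were analysed. Fold changes are differences of mean deposited log2 values. limma 3.58.1 in R 4.3.3, with a variance trend, was run on log2(TPM + 1) of all 6 libraries without a block. Benjamini-Hochberg adjustment was over all analysed entries. The code was first tested on simulated data, with independent libraries and changes larger than that of any member, so that test does not cover small differences. An exact permutation test of 3 against 3 libraries cannot go below 0.10, and none was run. Alternatives were a pseudocount of 0.1 or none, TPM above 2 in 3 libraries, entries above the floor in any library, median ratio rescaling, no variance trend, a lowess correction (span 0.3) for GC content of GENCODE 44 transcripts, the experiment number as a block, and each library left out. A pseudocount of 1 for the deposited-scale values was added after the data were seen. Coordinates are those of GENCODE 44 on hg38, and promoter windows those of RefSeq.

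The members and lists were chosen with earlier results of these data known. Members named were, by rule, the extremes of each complex, up to 8 in each direction without overlap between the lines, subunit families, catalytic subunits, and extremes of level and spread. Other lists gave the genes with the largest difference and CYCS, PPARGC1A, NRF1, TFAM and NDUFA4L2. Further genes, NDUFV2, ATP5F1 and NDUFAF8 among them, were picked with their values in view. The values of 1 member named by the rule are not reported here.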

Additional observations from a re-analysis of the deposited data

How the results depend on the processing

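The number of members past limma's adjusted threshold was 0 with all 6 libraries and in 15 alternatives, with 1 member at an unadjusted p under 0.05 with all libraries and 0 to 4 in the alternatives, and the smallest adjusted p-value over them was 0.446. No alternative gave a member past 2-fold. A threshold of 1.5-fold was passed by 1 member, NDUFAF4, with all 6 libraries. Dropping A549-GFP replicate 2 brought NDUFAF4 within 1.5-fold, at -0.48. NDUFAF1 passed 1.5-fold too, at -0.80 and -0.75, with replicate 1 or 3 of the A549-GFP line dropped. It did so at -0.62 when A549-TIPARP replicate 2 was dropped. Rescaling by the median ratio gave 1 member with A549-TIPARP above and 6 with it below all A549-GFP libraries, and a median log2 fold change of the members of 0.0085. The GC correction gave 4 below, a median of 0.0054, and 0.026 for complex I subunits. With each library left out in turn, counts of members without overlap ran from 0 to 8 above and from 13 to 23 below, with the 8 (9.09%, against 7.21% of all analysed genes) without A549-GFP replicate 3, the 23 (26.1%) without A549-GFP replicate 1 (against 5.77%) or 2 (against 6.42%), and 18 (20.5%, against 7.97%), 15 (17%, against 5.21%) and 13 (14.8%, against 5.48%) with A549-TIPARP replicates 2, 1 and 3 left out in that order. The unadjusted count was 3 without A549-GFP replicate 2 (3.41%, against 10.5% of all analysed genes), 4 with replicate 3 of that line left out (4.55%, against 8.23%), and 0 without A549-TIPARP replicate 1 (1.92% of all analysed genes) or 3 (2.42%). The medians of the members then ran from -0.082 to -0.014. Of 37 analysed members named by rule, 16 changed sign in at least 1 of 12 settings, all with log2 fold changes within 0.14 of 0, and 21 in none.

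Deviations from the line means correlated at r = 0.41, -0.49 and -0.36 for same-numbered libraries across genes, and at -0.62 to 0.60 for the others. Deviations cancel within a line of 3 libraries, so these values depend on each other. They cannot decide whether same-numbered libraries were made as pairs. With the replicate block 0 members passed the adjusted test and 1 was under an unadjusted 0.05 (1.14%, against 3.14% of all analysed genes), and likewise with the GC correction and the block together (1.14%, against 4.57%). TPM keeps no depth, so no limit from counting can be given.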

Other observations

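The citric acid cycle, which feeds NADH to complex I and succinate to complex II, was not matched by the pattern and was read from a list of 13 enzymes, all analysed. None passed limma's adjusted test, and 12 were lower in the A549-TIPARP line, with a median log2 fold change of -0.13, where 59.9% of all analysed genes were lower. After rescaling 9 were lower and the median was -0.06, and with the GC correction 10 were lower and it was -0.08. The median was -0.21 without A549-GFP replicate 3 and -0.11 to -0.20 with each other library left out. The list was chosen with earlier results of these data known.

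In 2 of the 13 enzymes the A549-TIPARP libraries lay below all A549-GFP libraries, where 3.54% of all analysed genes lay. In none did they lie above, where 5.36% of all analysed genes lay. IDH3A, the catalytic subunit of the NAD-dependent isocitrate dehydrogenase, read 91.9, 119.6 and 76.7 TPM in the A549-GFP libraries and 63.4, 70.2 and 68.7 TPM in the A549-TIPARP libraries (log2 fold change -0.49, or -0.32 without A549-GFP replicate 2, limma adjusted p = 0.994). CS, citrate synthase, read 202, 196 and 158 TPM and then 150.7, 142 and 151 TPM (log2 fold change -0.32). OGDH, of the oxoglutarate dehydrogenase complex, had the same mean difference as IDH3A, but its 96.1 TPM in A549-GFP replicate 2 stood against 32.4 to 39.1 TPM in the other 5 libraries, and the difference was 0.00 without that library.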
